A study of Homo sapiens with 6 samples.

Results

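SFPQ, NONO, PSPC1 and NEAT1 are the core of the paraspeckle, and their values in the Flag-IPs and HA-IPs are described here. The genes were taken by symbol from a deposited table of 16834 genes, in which all 4 are present. They were chosen by their known role and with their HA-IP and Flag-IP values in view, so the comparison of these 4 genes between the groups is a description, and no p-value is given for it. Polyadenylated RNA was sequenced from 3 Flag-IPs and 3 HA-IPs. The cells were asynchronous HEK293-T Flp-In cells, a line of human embryonic kidney origin that the labels list as HEK-293T, kidney and epithelial-like. All 6 samples carry the same ccTaggedRP construct, inserted as a single copy and driven by the CAG promoter. All were grown under hygromycin B, and no cell cycle inhibitor is named for them. The construct encodes Flag-RPL10a-hCdt, which is degraded from late S phase through M, and HA-RPL10a-hGem, which is degraded from late G1 into early S phase. By design the Flag protein is enriched in G0 and G1 and the HA protein in G2 and M. In the authors' prediction both are present in S phase. Because the cells were not synchronized, each IP is a mixture of phases weighted by the tagged protein that was pulled down, and an untagged control or an input library was not analysed here. Nothing in the labels says whether the 3 samples of a group came from separate cultures, so every p-value below measures only the spread between these samples.

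Paraspeckles are nuclear bodies that assemble on NEAT1, a long noncoding RNA that stays in the nucleus. NEAT1 is made in a short polyadenylated form and in a long form that runs past the polyadenylation signal of the short form and is stabilized by a triple helix in place of a poly(A) tail. Only the long form builds paraspeckles. SFPQ, NONO and PSPC1 form the DBHS family (Drosophila behaviour, human splicing), whose members share a pair of RNA recognition motifs, a NONA/paraspeckle domain and a coiled coil, and pair with each other as homodimers and heterodimers. SFPQ and NONO are needed for paraspeckles to form, PSPC1 marks them, and outside these bodies the DBHS proteins act in transcription, splicing, RNA retention and DNA repair. A ribosome IP reports on the mRNAs of the 3 proteins and not on the nuclear bodies themselves.

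By the annotation (GENCODE release 44, GRCh38), SFPQ (ENSG00000116560) lies on the minus strand at chr1:35176378-35193446, and its canonical mRNA has 10 exons and 3740 bases. NONO (ENSG00000147140) lies on the plus strand at chrX:71254814-71301522, with a canonical mRNA of 12 exons and 2661 bases. PSPC1 (ENSG00000121390) lies on the minus strand at chr13:19674752-19783019, with a canonical mRNA of 9 exons and 2435 bases. NEAT1 (ENSG00000245532) lies on the plus strand at chr11:65422774-65445540. Its long form, NEAT1-202, is 1 exon of 22743 bases, while the short form NEAT1-201 has 3441 bases, and the deposited values do not separate them. As polyadenylated RNA was sequenced, the long form may be under-represented, which was not tested.

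The core promoters of NONO and PSPC1 are shown because promoter elements of cell cycle genes are well known. Those of SFPQ and NEAT1 are not shown. Each runs 5′ to 3′ from 250 bases before to 30 bases after the start of the canonical mRNA, read from RefSeq on GRCh38.p14. NONO is at chrX:71283385-71283664 on the plus strand and PSPC1 at chr13:19782916-19783195 on the minus strand. Capitals mark CCAAT, the box bound by NF-Y, on either strand, and TTTGAA, a form of the cell cycle genes homology region (CHR) of many G2/M genes.
NONO: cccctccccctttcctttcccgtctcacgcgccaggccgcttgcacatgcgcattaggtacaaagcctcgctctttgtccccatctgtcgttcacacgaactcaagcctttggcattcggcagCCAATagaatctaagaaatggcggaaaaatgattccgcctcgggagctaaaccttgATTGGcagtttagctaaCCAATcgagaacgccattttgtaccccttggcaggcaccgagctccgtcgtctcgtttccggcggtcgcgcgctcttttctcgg
PSPC1: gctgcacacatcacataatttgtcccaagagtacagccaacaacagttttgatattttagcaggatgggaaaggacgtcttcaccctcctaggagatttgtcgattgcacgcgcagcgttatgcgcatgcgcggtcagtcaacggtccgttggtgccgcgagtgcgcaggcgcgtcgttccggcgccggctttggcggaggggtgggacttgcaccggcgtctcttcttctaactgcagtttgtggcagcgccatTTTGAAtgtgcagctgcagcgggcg
The NONO sequence holds 3 CCAAT boxes, at -127 to -123, at -71 to -67 on the other strand and at -54 to -50 from the start, and no TTTGAA. The PSPC1 sequence holds 1 TTTGAA at 6 to 11 bases past the start and no CCAAT. Neither holds an E2F core as searched here (TTCCCGC and its variants TTGGCGC as well as TTCGCGC and also TTGCCGC). The matches do not overlap each other. Counting both strands, 33.6% of 35116 RefSeq promoters of the same length hold CCAAT, 14.5% hold TTTGAA and 12.2% hold 1 of the E2F cores.

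Depth did not limit the 3 protein-coding genes. The 6 libraries held 23174532 to 44134833 reads on the genes of the table, and the values are normalized counts, which are reads on a gene divided by a size factor of the library. SFPQ rested on 20499 to 52786 reads per library, NONO on 27322 to 51985, PSPC1 on 2101 to 5778 and NEAT1 on 699 to 877. Counting error was therefore at most 0.698% of the value for SFPQ, 0.605% for NONO, 2.18% for PSPC1 and 3.78% for NEAT1, in each case below the spread between replicates described below. Markers of another tissue moved with the groups. Of 18 heart muscle markers, 14 are in the table. All 14 were called higher in the Flag-IPs by limma and edgeR, and 11 by DESeq2. Over all genes, limma called 5.79% toward the HA-IPs and 7.10% toward the Flag-IPs. The summed levels of the 14 were 146938, 104663 and 68459 normalized counts for Flag-IP replicates 1 to 3 against 2720, 1770 and 13920 in HA-IP replicates 1, 2 and 3. Among them, CSRP3 was at 0 in HA-IP replicates 1 and 2. RYR2 was still at 679 to 795 in the HA-IPs, against 1105 to 1625 in the Flag-IPs. Of 7 fibroblast markers 6 are in the table and 5 were called higher in the Flag-IPs (sums of 4874 to 7456 against 1528 to 2124). COL1A1 made up most of these sums (means of 3828.5 and 1353), and the median log2 fold change of the 6 was -3.02. PDGFRA, the 1 not called, had a log2 fold change of 0.14. Of 5 endothelium markers 3 are in the table and 2 were called higher in the Flag-IPs (105 to 160 against 49 to 68). All 8 embryonic kidney and epithelial markers are in the table, with sums of 18768 to 19143 in the Flag-IPs and 20632 to 20991 in the HA-IPs, with 2 called toward the HA-IPs and 1 toward the Flag-IPs. Of 10 mature kidney markers 5 are in the table, with 1 called toward the HA-IPs and 2 toward the Flag-IPs (sums of 3636 to 4439 against 4342 to 4710). LRP2, the 1 called toward the HA-IPs, made up most of these sums (means of 3708 and 4521). The other 2 called were SLC12A1 (means of 50.3 in the Flag-IPs and 2.49 in the HA-IPs) and SLC34A1 (93.5 and 4.29). Of the 5, 2 had a positive and 3 a negative log2 fold change, with a median of -1.24. In bulk libraries, fewer cells of a type and less RNA per cell cannot be told apart. All 6 samples are IPs from the 1 cell line named above, and the source of these marker reads was not tested.

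The mRNA of SFPQ, a splicing factor and transcription regulator, was more abundant in the HA-IPs. SFPQ measured 26621, 28858 and 32634 normalized counts in replicates 1, 2 and 3 of the Flag-IP and 37248, 39300 and 37548 in those of the HA-IP. All 3 HA-IPs were above all 3 Flag-IPs, and 4614 normalized counts separated the lowest HA-IP from the highest Flag-IP (in level, 16.1% of all genes had all HA-IPs above all Flag-IPs, and 16.1% the reverse). The means were 29371 ± 3039 in the Flag-IPs and 38032 ± 1108 in the HA-IPs (SD, n = 3 each), 29.5% higher in the HA-IPs. The log2 fold change, HA-IP over Flag-IP on log2(normalized counts + 1), was 0.38 with a standard error (SE) of 0.068, and 3.92% of all genes had a larger one. The Flag-IPs also varied more among themselves, with a coefficient of variation of 10.3% against 2.91% in the HA-IPs.

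PSPC1, whose protein marks paraspeckles without being needed for them, had the same pattern at a lower level. It measured 2728, 2857 and 3457 normalized counts in replicates 1, 2 and 3 of the Flag-IP and 4077, 4256 and 4209 in those of the HA-IP. The groups did not overlap, with a gap of 620.1 normalized counts. The means were 3014 ± 389 in the Flag-IPs and 4181 ± 92.6 in the HA-IPs (SD, n = 3 each), 38.7% higher in the HA-IPs. The log2 fold change was 0.48 (SE 0.077), exceeded by 2.55% of all genes. As for SFPQ, the coefficient of variation was larger in the Flag-IPs (12.9%) than in the HA-IPs (2.21%), with replicate 3 the highest of the Flag-IPs for both genes.

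NONO, the X-linked DBHS gene, whose protein forms a heterodimer with SFPQ, did not separate the groups. It measured 35482, 36556 and 38171 normalized counts in replicates 1, 2 and 3 of the Flag-IP and 36682, 39213 and 41078 in those of the HA-IP. The lowest HA-IP lay below the highest Flag-IP. The means were 36736 ± 1353 and 38991 ± 2206 (SD, n = 3 each), 6.14% higher in the HA-IPs. The log2 fold change of 0.09 (SE 0.055) was exceeded by 32.3% of all genes, and it was -0.03 after quantile normalization, so its direction depends on the scaling.

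NEAT1, the RNA scaffold, was the only one of the 4 with a lower mean in the HA-IPs, and its groups overlapped. It measured 1139, 750 and 760 normalized counts in replicates 1, 2 and 3 of the Flag-IP and 605, 707 and 771 in those of the HA-IP. Flag-IP replicate 1 stood above the other libraries, while the other Flag-IPs lay within the range of the HA-IPs. The means were 883 ± 222 in the Flag-IPs and 694 ± 83.8 in the HA-IPs (SD, n = 3 each). The log2 fold change was -0.33 (SE 0.15), and without Flag-IP replicate 1 it was -0.13. MALAT1, the nuclear lncRNA gene that neighbours NEAT1 in the genome, had 604 ± 61.1 and 615 ± 54.4 (SD, n = 3 each) and a log2 fold change of 0.03 (limma adjusted p = 0.889), or -0.03 at the same total per library.

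**Figure D1:**
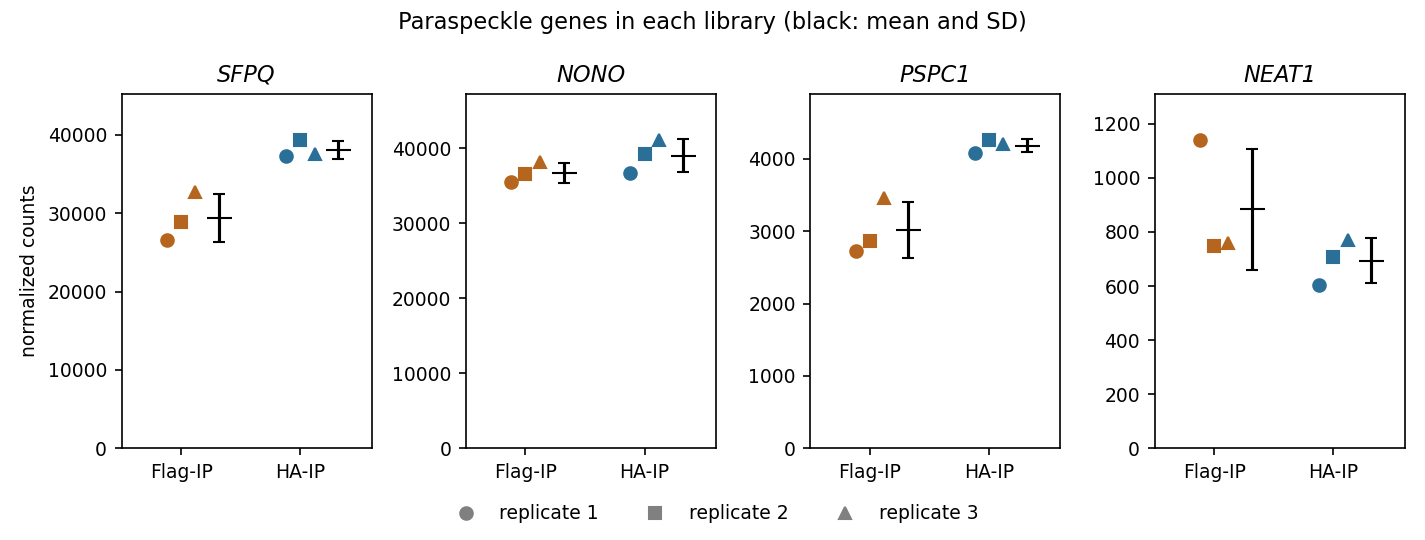
Normalized counts (vertical axis, from 0 in each panel) of SFPQ, NONO, PSPC1 and NEAT1 in the 3 Flag-IPs and 3 HA-IPs, with 1 point per library and the mean and SD in black. All HA-IPs lie above all Flag-IPs for SFPQ and PSPC1, the groups overlap for NONO and NEAT1, and Flag-IP replicate 1 is the highest library of NEAT1 at 1139.

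Any factor that multiplies all genes of a library drops out of a ratio taken within that library, so the 4 genes were also set against each other. The ratio of SFPQ to NONO was 0.7503, 0.789 and 0.855 in Flag-IP replicates 1, 2 and 3 and 1.015, 1.002 and 0.914 in HA-IP replicates 1, 2 and 3. SFPQ thus went from fewer normalized counts than NONO in all 3 Flag-IPs to about as many in the HA-IPs, with no overlap and a mean difference of 0.29 in log2 of the ratio. In the Flag-IPs the ratio of NONO to PSPC1 was 13.0, 12.8 and 11.0, and in the HA-IPs it was 8.997, 9.21 and 9.76, again without overlap (log2 difference -0.39). The ratio of SFPQ to PSPC1 moved least, from 9.76, 10.1 and 9.44 (Flag-IPs) to 9.14, 9.24 and 8.92 (HA-IPs) (log2 difference -0.10), although here too the groups were separate. Relative to NEAT1, all 3 DBHS genes were higher in every HA-IP than in every Flag-IP, with log2 differences of 0.70 for SFPQ, 0.41 for NONO and 0.81 for PSPC1. Flag-IP replicate 1 gave the lowest ratio each time, and without it the differences were 0.44, 0.19 and 0.54. These ratios reuse the values on which the genes were selected and are given without a test. How often ratios or shares of other genes separate the groups was not counted.

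**Figure D2:**
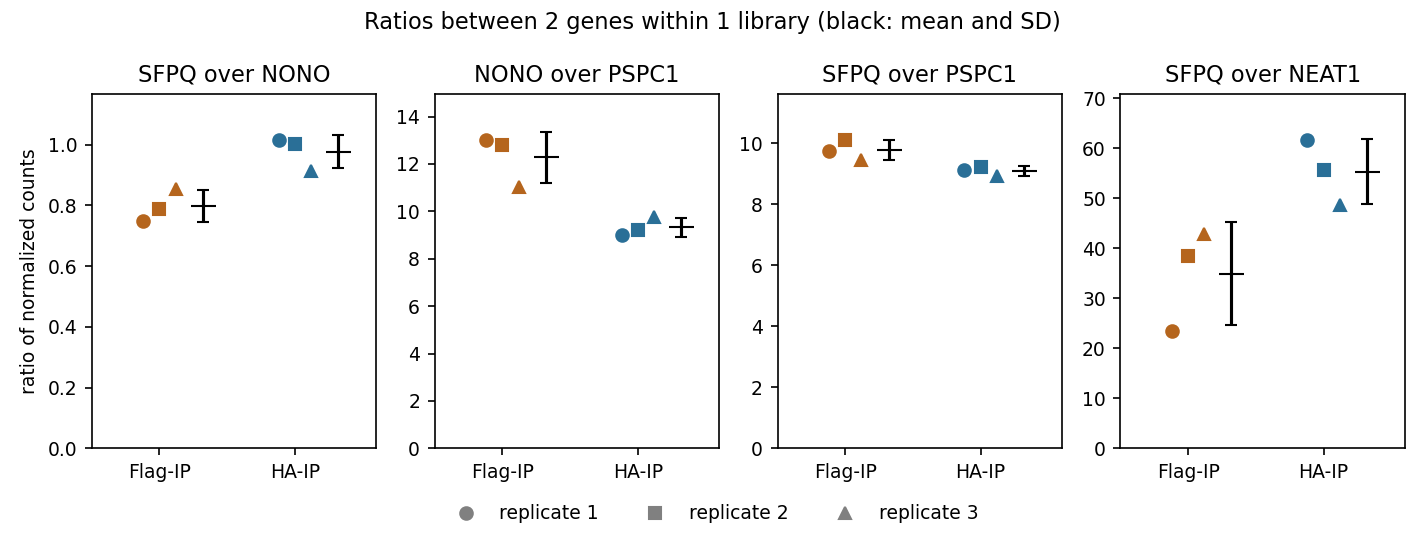
Ratio of normalized counts between a pair of genes within the same library (vertical axis, from 0), with 1 point per library and the mean and SD in black. SFPQ over NONO is higher in the HA-IPs, NONO over PSPC1 is lower, SFPQ over PSPC1 changes little (8.92 to 10.1 over all libraries), and SFPQ over NEAT1 runs from 23.4 to 61.6.

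Within the DBHS family the make-up of the mRNA pool shifted accordingly. SFPQ took 41.1%, 42.3% and 43.9% of the DBHS normalized counts in Flag-IP replicates 1, 2 and 3 and 47.8%, 47.5% and 45.3% in HA-IP replicates 1, 2 and 3. The share of NONO went the other way, from 51.4% to 54.7% in the Flag-IPs to 47.0% to 49.6% in the HA-IPs. PSPC1 held 4.19% to 4.66% and 5.08% to 5.23%. The group ranges did not overlap for any of the 3 shares, which sum to a fixed total and so cannot move independently. In level, NONO itself did not separate the groups.

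SFPQ and PSPC1 ranked the 6 libraries in the same order, from Flag-IP replicate 1 as the lowest through Flag-IP replicates 2 and 3 and HA-IP replicates 1 and 3 to HA-IP replicate 2 as the highest. The summed heart muscle markers given above ran almost in the opposite order, highest in Flag-IP replicate 1 and lowest in HA-IP replicate 2, and HA-IP replicates 1 and 3 alone broke it. NEAT1 was also highest in Flag-IP replicate 1, but it was lowest in HA-IP replicate 1. The part of the heart muscle markers in the SFPQ, PSPC1 and NEAT1 results was not tested.

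**Figure D3:**
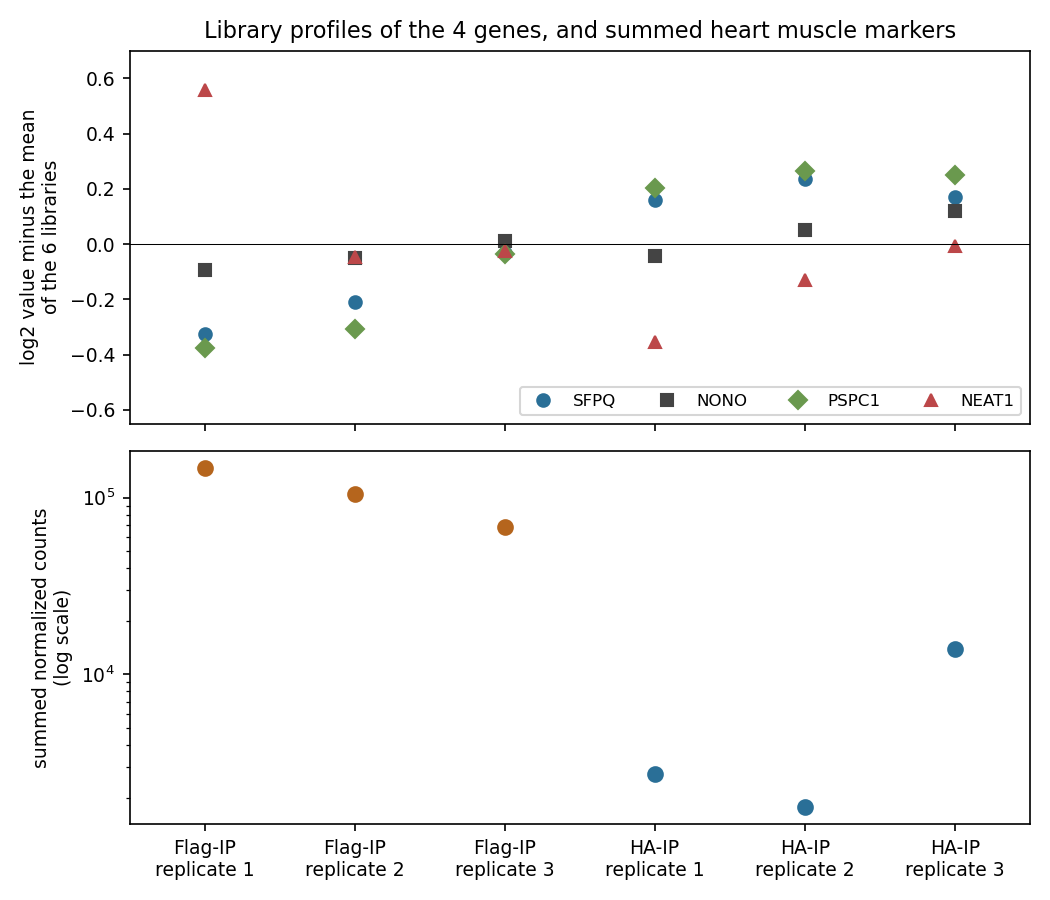
The upper panel shows log2 of each gene's level minus its mean over the 6 libraries, and the lower panel the summed normalized counts of 14 heart muscle markers on a log axis, by library. SFPQ and PSPC1 lie below 0 in the Flag-IPs and above 0 in the HA-IPs, where the marker sums fall from 68459 or more to 13920 or less.

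Compared per kilobase of the canonical transcript, the 4 genes had the same order in 6 of 6 libraries. NONO had 13805 ± 509 normalized counts per kilobase in the Flag-IPs and 14653 ± 829 in the HA-IPs, and SFPQ had 7853 ± 813 and 10169 ± 296 (SD, n = 3 each). PSPC1 followed with 1238 ± 160 and 1717 ± 38.0, and NEAT1 with 38.8 ± 9.75 and 30.5 ± 3.68 (SD, n = 3 each). Among 16683 genes with an annotated length, 99.7% had a lower mean level per kilobase than NONO, 99.3% than SFPQ, 91.7% than PSPC1 and 25.2% than NEAT1, or 57.9% when the short form of NEAT1 is used. The order of NONO and SFPQ rests on the length chosen. Over the union of all exons SFPQ had 4365 against 3374 for NONO, with SFPQ higher in 6 of 6 libraries, and over the longest transcripts the means were 8340 and 7735, in that order in 4 of 6 libraries. NEAT1 rose to 229 per kilobase when the 3441 bases of the short form were used and was still the lowest of the 4 genes.

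**Figure D4:**
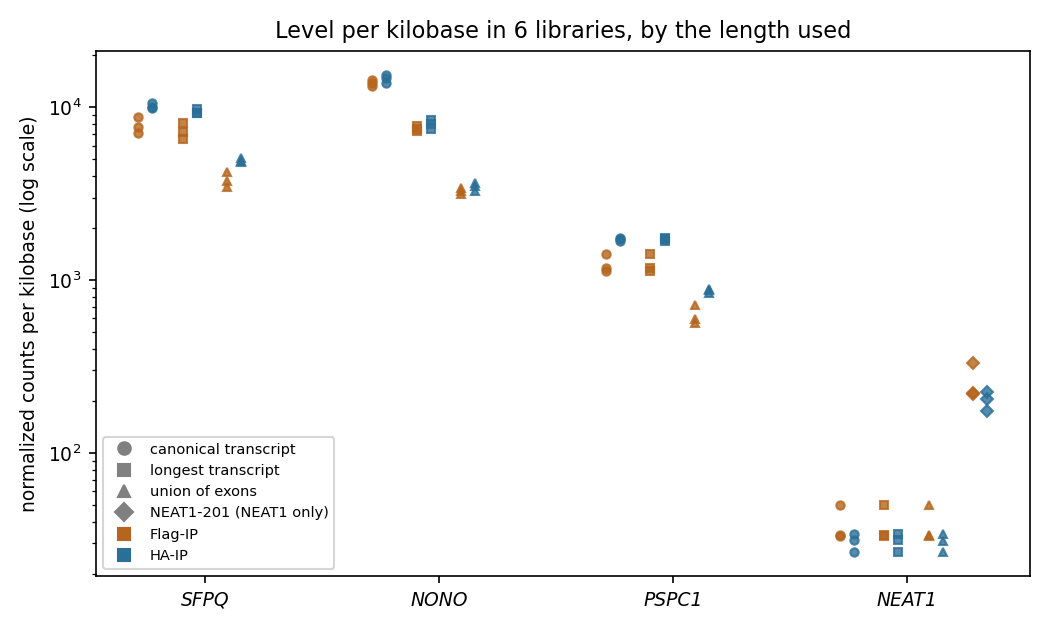
Normalized counts per kilobase (log axis) of the 4 genes in each library, coloured by IP, with the marker shape giving the transcript length that was used. NONO lies above SFPQ with the canonical transcripts and below it with the union of exons, and NEAT1 lies lowest with every length.

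Some reads on these genes may belong elsewhere. Of the 75-base stretches of the canonical NONO mRNA, 10.1% also occur in the processed pseudogene ENSG00000260290, which held 32.3 to 48.9 normalized counts, and 9.06% of those of PSPC1 occur in PSPC1P1, which held 8.91 to 11.0. Both pseudogenes were thus far below the level of their parent genes, with log2 fold changes of -0.03 and 0.03 (limma adjusted p = 0.953 and 0.977). For SFPQ and NEAT1 the shared part was 0.273% and 0.829%. Whether the counting used the strand is not given in the sources used here, so reads from opposite strands cannot be told apart where genes overlap. ZMYM3, a zinc finger gene on the opposite strand, overlaps 333 bases at the upstream end of NONO, which belong to 1 of its 40 transcripts and not to the canonical one. ZMYM3 had 5495 ± 268 normalized counts in the Flag-IPs and 6005 ± 75.9 in the HA-IPs (SD, n = 3 each), and its log2 fold change of 0.13 did not pass the threshold (limma adjusted p = 0.114). The antisense gene PSPC1-AS2, which overlaps PSPC1, was not analysed here.

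The genes whose log2 values followed each member most closely over the 6 libraries were picked by Pearson's r among 11634 genes with a symbol and a mean of at least 100 normalized counts. For SFPQ they were SERPINE2, a serine protease inhibitor (r = 0.9985), UNC45A, a myosin chaperone (r = 0.998), and UBA1, the ubiquitin-activating enzyme (r = 0.998). For PSPC1 they were SCAF11, an SR-related splicing factor (r = 0.998), CCN1, a matricellular protein (r = 0.998), and IRS4, an insulin receptor substrate (r = 0.998). For NONO they were TUFM, the mitochondrial elongation factor (r = 0.994), DDX46, a spliceosomal helicase (r = 0.991), and NCL, nucleolin (r = 0.990). For NEAT1 they were ATP5F1E, a subunit of ATP synthase (r = 0.998), TSPAN31, a tetraspanin (r = 0.996), and TOMM22, an import receptor of the mitochondrial outer membrane (r = 0.996). With 6 libraries in 2 groups and so many candidates, values of r this high are given as a description only.

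Most of the other paraspeckle genes did not pass the test. Of 42 table entries for the other paraspeckle proteins on 4 lists (CELF6 is not among them and MATR3 has 2), 29 had a positive and 13 a negative log2 fold change, with a median of 0.08 against -0.0049 over all genes. Over all genes the split was 8257 positive and 8577 negative. For the 42 entries it was 24 and 18 after quantile normalization and 25 and 17 at the same total per library, and their median stayed positive in 18 of 18 alternatives. After quantile normalization, however, the median was 0.043 for these genes and 0.044 for all genes, so the difference from all genes was lost. In limma, 4 of the 42 (9.52%) were called higher in the HA-IPs at an adjusted p of at most 0.05, against 5.79% of all genes. None was called higher in the Flag-IPs by limma, edgeR or DESeq2, against 7.10% of all genes in limma. An unadjusted limma p under 0.05 was found for 13 of the 42 toward the HA-IPs. Toward the Flag-IPs it was found for 2 (SRSF10 and BCL6, named after their values were seen). Over all 16834 genes these counts were 2239 and 2348. All HA-IPs exceeded all Flag-IPs in 10 of the 42 (23.8%, against 16.1% of all genes), and the reverse held in 3 (7.14%, against 16.1%). The count of 4 was 0 in limma without the trend of the variance and 0 without Flag-IP replicate 2, in which 6 and 8 entries had an unadjusted p under 0.05. It was 11 without Flag-IP replicate 3 and 2 without HA-IP replicate 2 or HA-IP replicate 3, so single libraries decide it. The count of all genes called toward the HA-IPs, 975 as reported, moved the same way. The all-gene count was 6 without the trend and 103 without Flag-IP replicate 2. Without Flag-IP replicate 3, HA-IP replicate 2 or HA-IP replicate 3 it was 1550, 268 and 319, in that order.

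Among 5 proteins that assemble paraspeckles together with SFPQ and NONO, all 5 had a positive log2 fold change, as had 8257 of all 16834 genes. DAZAP1 was negative after quantile normalization (-0.05) or at the same total per library (-0.03). Of the 5, 2 were called (40%, against 5.79% of all genes toward the HA-IPs). HNRNPK, which favours the long NEAT1 form by blocking its early 3′ end processing, measured 44288, 44804 and 48111 normalized counts in replicates 1, 2 and 3 of the Flag-IP and 50710, 53939 and 56229 in those of the HA-IP. The groups were separate, and the log2 fold change was 0.23 (SE 0.057, limma adjusted p = 0.0229), but it was 0.076 after quantile normalization. RBM14, a prion-like domain protein, had 5437 ± 324 and 6250 ± 342 (SD, n = 3 each) and a log2 fold change of 0.20 (limma adjusted p = 0.0431). These calls were kept in 3 and 2 of the 6 fits that left out 1 library. DAZAP1, an RNA-binding protein, had 0.02 (adjusted p = 0.829), HNRNPH3, an hnRNP, 0.11 (adjusted p = 0.372) and SMARCA4, the ATPase of SWI/SNF chromatin remodellers, 0.12 (adjusted p = 0.252, all log2 fold changes from limma). After quantile normalization HNRNPH3 had 0.053 and SMARCA4 0.003.

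The cleavage factor I subunits, which promote the 3′ end of the short NEAT1 form and so act opposite to HNRNPK, gave 0 calls in limma, edgeR and DESeq2, and 0 of the 3 had an unadjusted p under 0.05. NUDT21 had a log2 fold change of -0.08 (limma adjusted p = 0.393), CPSF6 of 0.06, or -0.01 after quantile normalization (adjusted p = 0.449), and CPSF7 of -0.09 (adjusted p = 0.225). Every Flag-IP lay above every HA-IP for CPSF7, at 5114 to 5212 normalized counts against 4678 to 5038, while the groups overlapped for NUDT21 and CPSF6.

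Of the 19 entries for other paraspeckle RNA-binding proteins, 2 were called (10.5%), both higher in the HA-IPs, against 5.79% of all genes in that direction. HNRNPF, a splicing regulator of the hnRNP F/H family, measured 12206, 11592 and 12523 normalized counts in replicates 1, 2 and 3 of the Flag-IP and 14048, 14444 and 15101 in those of the HA-IP. Its log2 fold change of 0.26 (SE 0.050, limma adjusted p = 0.00703) was called in 5 of the 6 fits that left out 1 library. RBM12, an RNA-binding protein, had 9746 ± 698 and 11601 ± 363 (SD, n = 3 each), with a log2 fold change of 0.25 (limma adjusted p = 0.0147) called in 3 of those 6 fits. The 15 other proteins seen in paraspeckles gave 0 calls in limma, edgeR and DESeq2, and their log2 fold changes ran from -0.32 to 1.02. Of these 15 entries, 4 had an unadjusted limma p under 0.05 toward the HA-IPs and 1 toward the Flag-IPs, against 2239 and 2348 of all 16834 genes.

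**Figure D5:**
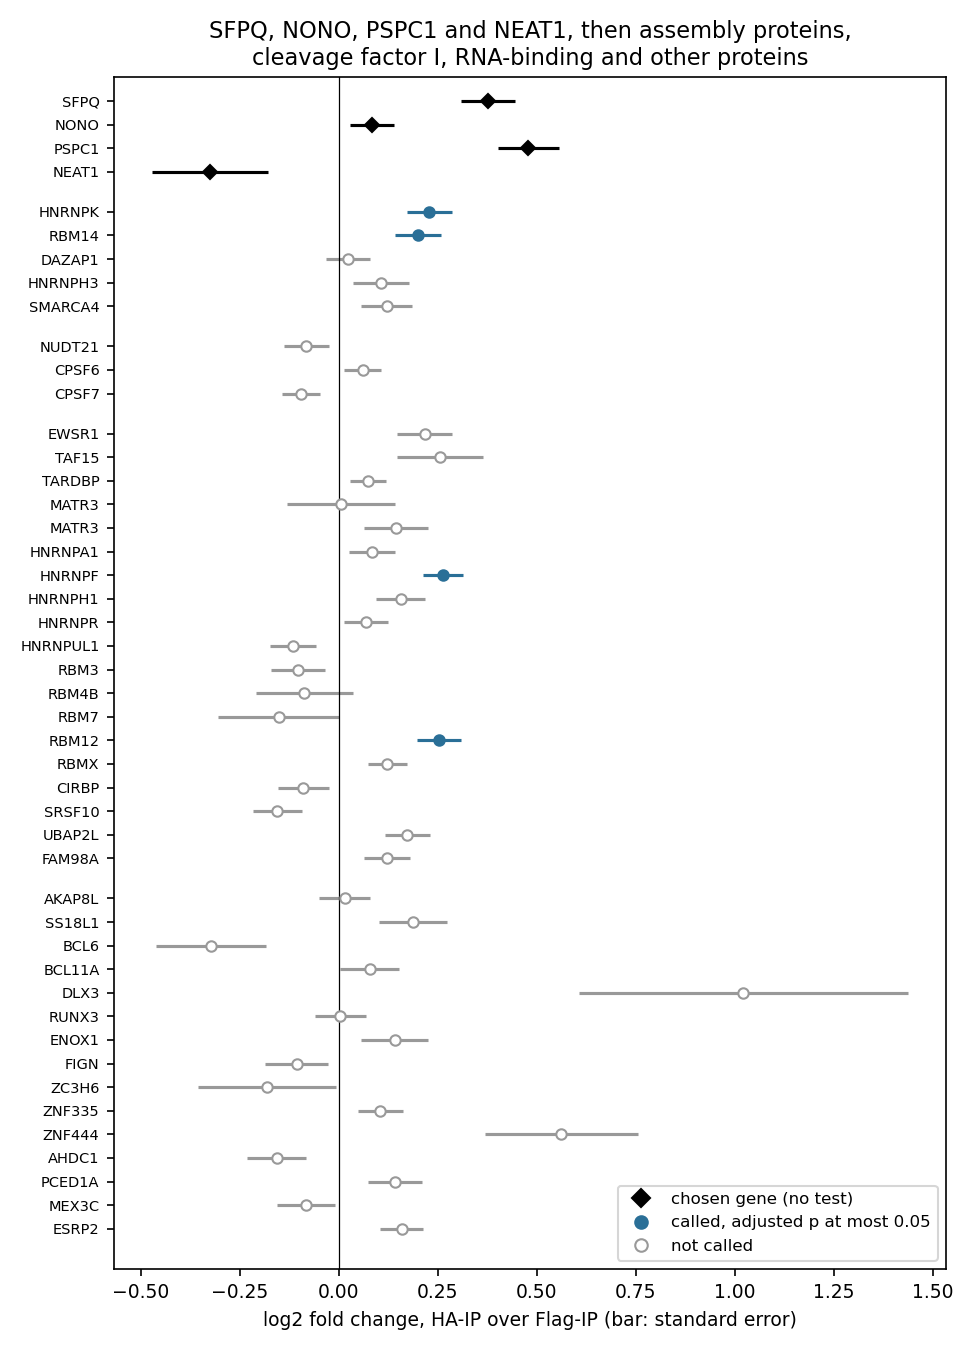
Log2 fold change, HA-IP over Flag-IP, with its standard error for SFPQ, NONO, PSPC1 and NEAT1 (black diamonds, no test) and for 42 entries of other paraspeckle genes (circles, filled when the limma adjusted p is at most 0.05). The 4 filled circles are HNRNPK, RBM14, HNRNPF and RBM12, at 0.20 to 0.26. PSPC1 is at 0.48 and SFPQ at 0.38, and the circles that are not filled run from -0.32 to 1.02.

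For comparison with NEAT1, 10 other long noncoding RNAs were listed, some of which are also found in the cytoplasm, and 8 are in the table. MIR17HG, the host transcript of the miR-17-92 cluster, was called higher in the HA-IPs with a log2 fold change of 1.38 (limma adjusted p = 0.000314). OIP5-AS1, a conserved lncRNA, was called higher in the Flag-IPs. It measured 2084, 2135 and 1742 normalized counts in replicates 1, 2 and 3 of the Flag-IP and 1610, 1648 and 1601 in those of the HA-IP, which gave a log2 difference of -0.29 (limma adjusted p = 0.0272). Its groups were separate, but the call was lost without Flag-IP replicate 2 and without each HA-IP in turn. The count of 1 in 8 in either direction (12.5%) stands beside 5.79% and 7.10% of all genes.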

How the data were processed

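Per the submitters' processing notes and the methods, the authors used Trimmomatic 0.36 for trimming and STAR 2.5.2b for mapping to GRCh38, counted reads per gene with featureCounts of Subread 1.5.2 and normalized them in DESeq2. The deposited values are a normalized signal per library, reads divided by a size factor. Dividing by the value of 1 read gave whole reads for 100% of values (tolerance 0.01). The deposited log2 fold change and adjusted p-value columns hold the authors' own comparison and were not used. All 16834 genes were compared in limma 3.58.1 (R 4.3.3) after log2(normalized counts + 1), using a variance trend, two-sided, Benjamini-Hochberg adjusted, called at 0.05 or less. With 3 against 3, an exact permutation test cannot go below p = 0.1, so none is given. edgeR 4.0.16 and DESeq2 1.42.0 on recovered reads, other scalings, pseudocounts, filters and lengths, and leaving out libraries were alternatives. Annotation came from GENCODE release 44, matched for 99.1% of identifiers. The test was checked on simulated data with changes larger than those called among the paraspeckle genes, so changes as small as these were not checked.

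The members and lists were chosen with earlier results of these data known. Genes named by rule are the 4 members, all assembly and cleavage factor I genes, called genes of the other paraspeckle and noncoding RNA lists, MALAT1, overlapping genes and pseudogenes of members, and the 3 genes with the highest r for each member. SRSF10, BCL6, CSRP3, RYR2, COL1A1, PDGFRA, LRP2, SLC12A1 and SLC34A1 were named after their values were seen. 1 gene was removed from the lists and their counts and is not reported here.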

Additional observations from a re-analysis of the deposited data

How the results depend on the processing

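The log2 fold changes of SFPQ and PSPC1 stayed positive and that of NEAT1 negative in 18 of 18 alternatives, and NONO was positive in 17. The filter, limma without the trend and the replicate block leave each fold change as it was. The groups of SFPQ and PSPC1 were separate, so leaving out libraries could not change the sign of either. Leaving out each library in turn gave 0.309 to 0.456 for SFPQ, 0.047 to 0.128 for NONO, 0.411 to 0.582 for PSPC1 and -0.429 to -0.128 for NEAT1. Quantile normalization gave 0.26 for SFPQ, -0.032 for NONO, a median of 0.043 over the other paraspeckle genes, 2 of these called toward the HA-IPs (4 as reported) and 1 toward the Flag-IPs (0 as reported). With each library at the same total, the median over those genes was 0.028 (0.081 as reported), and of all genes limma called 471 toward the HA-IPs and 1576 toward the Flag-IPs, against 975 and 1196 as reported. Without the trend in limma the counts were 0 of the paraspeckle genes in the HA-IPs, 0 of the long noncoding RNAs in the Flag-IPs (1 at an unadjusted p under 0.05), and 6 and 182 of all genes. DESeq2 called 6 paraspeckle genes toward the HA-IPs, and removing trends with GC content and length gave 8, with 2 in the Flag-IPs. Of all genes, DESeq2 called 1044 toward the HA-IPs and 1230 toward the Flag-IPs. With those trends removed the all-gene counts were 1348 and 1239, and after quantile normalization 704 and 1004. Leaving out libraries in turn gave 0 to 11 and 0 to 2 paraspeckle genes with a median of 0.055 to 0.109, 0 to 1 long noncoding RNA in the Flag-IPs, and 103 to 1550 and 517 to 1509 of all genes. Leaving out Flag-IP replicate 1 and HA-IP replicate 3, chosen after seeing the data, gave 610 of all genes in the HA-IPs, a median of 0.049 over the paraspeckle genes and 0 long noncoding RNAs in the Flag-IPs (2 at an unadjusted p under 0.05). The cause was not tested. With the replicate number as a block, 5 paraspeckle genes, and 752 and 910 of all genes, were called, while SFPQ had 0.377, NONO 0.085, PSPC1 0.479 and NEAT1 -0.325. Same-numbered libraries deviated with r = -0.156, 0.0306 and -0.310 over 13141 genes, which are not independent. These values gave no sign of pairing by number, but with 3 libraries per group they cannot decide whether the samples were paired.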
